A study of Mus musculus with 57 samples.

Results

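Claudins are the small membrane proteins that form the strands of tight junctions, the seals between neighbouring epithelial cells. The 9 genes described here, Cldn1, Cldn3, Cldn4, Cldn6, Cldn7, Cldn8, Cldn10, Cldn12 and Cldn23, were chosen by name as claudins of the epithelium and were read from each of 5 raw count tables of embryonic mouse salivary gland. They are 9 of the 55554 genes named in any of those tables and 9 of the 33 claudin genes found there. All 9 passed the filter on low counts in 4 tables. The table of cultured epithelium holds 7 of them, and Cldn12 and Cldn23 are not analysed there.

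The study addressed how signalling from the growth factor neuregulin 1 (NRG1) through its receptor ERBB3 and the kinase mTOR takes part in building secretory acini, and it comprised 57 samples. Untreated submandibular glands labelled wild type were freshly dissected at embryonic day 13 (E13), E14, E15, E16, E17 and E18, with 4 samples (A to D) at each stage. End buds, the epithelial tips that later become acini, were separated from wild-type glands and kept with NRG1 or as untreated controls, with 3 untreated and 3 treated samples titled E13, and 2 untreated (control B and C) and 3 treated samples titled E14. The stage label of the end buds is E13 plus 4 h also for samples titled E14, except that NRG1 C of E14 is labelled E13 plus 72 h, and the titles were used. Wild-type epithelium labelled E13 plus 72 h received TORIN1, an inhibitor of mTOR kinase, or its vehicle DMSO, with 4 samples each. Glands at E16 were labelled wild type (WT) or Erbb3 knockout (KO), with 4 samples each, and the sources used here give neither the allele nor the deleted part nor the cells that lack it. Wild-type E13 epithelium was cultured with NRG1 for 2, 3 or 4 days (48, 72 or 96 h), with 2 samples each and no untreated group.

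The composition of claudins sets how tight an epithelium is and which ions pass between its cells. Cldn1, Cldn3 and Cldn4 are known as sealing claudins, and the loss of Cldn1 breaks the water barrier of mouse skin. Cldn10 forms paracellular ion channels, and its alternative first exons give isoforms that prefer cations or anions. In a salivary gland the junctions of acini let sodium and water follow chloride into the saliva, whereas ducts hold a tighter barrier. Cldn7 binds the adhesion protein EpCAM and is found along the lateral membrane as well as at the junction. Cldn8 works with Cldn4 in the collecting duct of the kidney. Cldn6 is known from embryonic epithelia and stem cells, Cldn12 from calcium transport across epithelia, and the role of Cldn23 is less well established.

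On GRCm38, Cldn10 (ENSMUSG00000022132) lies on the plus strand of chromosome 14 from 118787908 to 118875489. The annotation gives 3 protein-coding transcripts, of which 2 start at 118787908 and 118787918 and the other starts inside the gene at 118854732. Counts per gene merge them, so the counts do not tell which first exon was used. Cldn3 (ENSMUSG00000070473, plus strand, 134986214 to 134987472) and Cldn4 (ENSMUSG00000047501, minus strand, 134945119 to 134946934) lie 39279 bases apart on chromosome 5 and each consist of a single exon. The Cldn3 gene overlaps the antisense gene Wbscr25, and the sources used here do not say whether counting used the strand, so their reads cannot be told apart. Cldn6 (ENSMUSG00000023906, plus strand, 23679249 to 23682446) lies on chromosome 17, 137 bases from Cldn9 on the opposite strand. Cldn7 (ENSMUSG00000018569) lies on chromosome 11 from 69964779 to 69967885, plus strand. The single-exon gene Cldn8 (ENSMUSG00000050520, 88560828 to 88563183) and Cldn1 (ENSMUSG00000022512, 26356642 to 26371841) lie on the minus strand of chromosome 16. Cldn12 (ENSMUSG00000046798) lies on chromosome 5 from 5489537 to 5514958, minus strand, and the single-exon gene Cldn23 (ENSMUSG00000055976) on chromosome 8 from 35824712 to 35826559, minus strand.

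Promoter windows of RefSeq on GRCm38.p6, from 250 bases before to 50 bases after an annotated start, were found for 7 of the 9 genes, 11 windows in all. Cldn8 and Cldn23 are named only. Shown here are both Cldn10 windows, since Cldn10 had the largest changes of the 9 genes, and 1 window each of Cldn3 and Cldn7, which rose with it in the glands, and of Cldn6, which fell. They run 5′ to 3′ on the strand of the gene. Capitals mark 3 motifs on either strand, the E-box CAGGTG bound by the SNAI and ZEB repressors of epithelial genes, the ETS motif CCGGAA and the GC box GGGCGG of SP1.
Cldn10, upstream start, chr14:118787621-118787920, plus strand: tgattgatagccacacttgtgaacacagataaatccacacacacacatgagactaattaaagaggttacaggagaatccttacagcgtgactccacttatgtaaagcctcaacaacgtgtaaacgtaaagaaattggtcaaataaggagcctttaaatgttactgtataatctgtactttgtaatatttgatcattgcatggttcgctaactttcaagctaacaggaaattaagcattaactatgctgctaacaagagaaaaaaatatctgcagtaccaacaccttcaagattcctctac
Cldn10, internal start, chr14:118854700-118854999, plus strand: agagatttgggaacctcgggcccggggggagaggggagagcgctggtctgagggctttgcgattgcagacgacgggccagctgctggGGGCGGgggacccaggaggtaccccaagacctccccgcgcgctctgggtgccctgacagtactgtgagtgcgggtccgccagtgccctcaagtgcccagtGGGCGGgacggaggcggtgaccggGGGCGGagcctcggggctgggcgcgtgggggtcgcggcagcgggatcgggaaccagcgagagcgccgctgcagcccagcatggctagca
Cldn3, chr5:134985964-134986263, plus strand: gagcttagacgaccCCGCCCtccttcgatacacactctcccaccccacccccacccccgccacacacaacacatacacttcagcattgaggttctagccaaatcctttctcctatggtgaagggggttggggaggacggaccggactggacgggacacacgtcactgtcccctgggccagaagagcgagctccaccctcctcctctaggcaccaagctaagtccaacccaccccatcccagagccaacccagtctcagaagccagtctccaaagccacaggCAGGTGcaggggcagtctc
Cldn7, second start, chr11:69965171-69965470, plus strand: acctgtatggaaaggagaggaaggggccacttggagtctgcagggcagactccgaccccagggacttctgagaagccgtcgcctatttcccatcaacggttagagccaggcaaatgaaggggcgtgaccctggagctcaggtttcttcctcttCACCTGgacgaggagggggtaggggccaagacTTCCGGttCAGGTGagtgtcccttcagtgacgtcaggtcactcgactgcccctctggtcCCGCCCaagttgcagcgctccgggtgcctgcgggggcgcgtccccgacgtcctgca
Cldn6, chr17:23679115-23679414, plus strand: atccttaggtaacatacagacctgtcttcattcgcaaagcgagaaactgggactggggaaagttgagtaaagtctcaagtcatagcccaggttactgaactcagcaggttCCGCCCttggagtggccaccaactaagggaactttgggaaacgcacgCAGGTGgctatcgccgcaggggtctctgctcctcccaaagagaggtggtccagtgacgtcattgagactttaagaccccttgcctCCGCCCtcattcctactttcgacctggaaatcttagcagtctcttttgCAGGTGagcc
The Cldn10 windows differed in base content, with 36.0% G and C and no match in the upstream window, and 72.0% and 3 GC boxes in the internal one. The Cldn7 window shown held 2 E-boxes, 1 ETS motif and 1 GC box. The other Cldn7 window, which is not shown, held 0 E-boxes, 1 ETS motif and 0 GC boxes. The Cldn3 window held 1 E-box and 1 GC box, and the Cldn6 window 2 E-boxes and 2 GC boxes. Over the 11 windows the E-box was found in 4, the ETS motif in 5 and the GC box in 8, and no match overlapped another motif. Of 32544 distinct windows of 300 bases in that table, 20.3% held the E-box, 15% the ETS motif and 35.9% the GC box. The 3 windows of Cldn12 overlap each other and share the same ETS match. By gene the E-box was found in 4, the ETS motif in 2 and the GC box in 7 of the 7 genes. A match is a description of letters only.

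Library totals ranged from 13033868 to 25935489 counts for glands and from 16027377 to 26306020 for end buds. They ranged from 16318997 to 19671988 for the TORIN1 set and from 8913271 to 11890488 for the KO set. The culture table holds counts of 5171 named genes and its totals are no depths. Levels are CPM, counts brought to a common library total within each table with edgeR's TMM factors, so levels of different tables are set side by side only as orders of size. Calls are at an adjusted p under 0.05 from edgeR's quasi-likelihood test, changes are on the log2 scale with their standard error (SE), and levels are mean ± SD. The labels do not say whether the replicates are separate animals or cultures, and p-values therefore measure only the spread among the samples, part of which may be technical. In bulk RNA, fewer cells of a type and less RNA per cell cannot be told apart.

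The labelled tissues were checked against markers. The sum of 14 epithelial marker genes was 1025 to 1159 CPM in E13 glands and 5248 to 9196 CPM in E18 glands, 12 mesenchyme markers summed to 13850 to 14120 and 5049 to 11550 CPM, and 12 acinar markers to 4.72 to 38.5 and 167400 to 178300 CPM, with Prol1, Dcpp3 and Mucl2 at 0 at E13. In end buds the epithelial markers summed to 3918 to 5047 CPM. Mesenchyme markers summed to 283 to 690.5 CPM in E13 control buds and 1694 to 5395 CPM in E14 control buds, and the 10 endothelial markers to 7.74 to 22.9 and 212 to 345 CPM, so the buds titled E14 carried more of both. Of the 14 epithelial markers 8 also stand on another list used here. The gland E18 D stood apart from the other E18 glands, with a chi-square per gene of 170 to 230 against them where the others gave 10.3 to 18.5 among themselves, and with epithelial markers at 9196 CPM against 5248 to 5390. The sample TORIN1 A stood apart likewise (99.8 to 118), with epithelial markers at 9013 CPM against 6438 to 6690.

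The first question was how the claudins changed as the gland grew from E13 to E18. Cldn10 rose most, 62.6-fold, and Cldn3 and Cldn7 followed with 13.2-fold and 8.25-fold. Cldn1 and Cldn8 rose 6.58-fold and 4.43-fold. The embryonic claudin Cldn6 fell to 0.52 of its E13 level and Cldn12 to 0.675. In all 7 of the 9 genes rose and 2 fell, where 36.5% of the 16521 genes tested rose and 36.2% fell, and the median change of the 9 was 2.15 against 0.01 over all genes.

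Cldn10 had 6.73, 7.09, 5.37 and 5.34 CPM in the 4 glands of E13 and 8.73, 13, 15.6 and 16.2 CPM in those of E14. At E15 the values were 88.1, 72, 79.7 and 68.8 CPM and at E16 229.6, 198, 192 and 206 CPM. At E17 they were 268, 281, 354 and 299.7 CPM and at E18 359, 311, 358 and 505 CPM. Each stage up to E17 lay wholly above the stage before it, and the E17 and E18 values overlapped, with E18 D the highest of all 24 glands. The change over the whole period was 5.97 ± 0.19, adjusted p = 7.11e-18. The steepest step was from E14 to E15, 2.52 ± 0.16, adjusted p = 1.1e-10, before 1.42 ± 0.15 to E16. Without E18 D the change from E13 to E18 was 5.81, adjusted p = 1.12e-19.

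Cldn3, a sealing claudin of many glandular epithelia, had 22.2, 18.4, 20.5 and 21.2 CPM at E13, 126, 111, 101 and 84.8 CPM at E15 and 267, 267, 275 and 280.2 CPM at E18. The 3 stages did not overlap, and the 4 E18 glands lay close together. Its change from E13 to E18 was 3.72 ± 0.12, adjusted p = 9.58e-18, made up of 0.86 ± 0.12 to E14, 1.5 ± 0.11 to E15 and 1.19 ± 0.11 to E16, after which no step was called.

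Cldn7, the EpCAM partner, had 23.7, 25.2, 21.3 and 24.5 CPM at E13, 111, 98.9, 91.5 and 101 CPM at E15, 162, 143, 149.7 and 158 CPM at E16 and 151, 131, 145 and 355 CPM at E18. The fourth E18 value is that of E18 D, and the other 3 lay within or below the E16 range. The change from E13 was 3.04 ± 0.23, adjusted p = 5.83e-11, and without E18 D 2.59, adjusted p = 6.48e-18. The step from E15 to E16 was 0.60 ± 0.21, adjusted p = 0.0401, and it was not called in any of the 8 fits that left out 1 of the E15 or E16 glands (adjusted p = 0.0506 to 0.0991).

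Cldn1 had 8.6, 6.95, 7.91 and 8.62 CPM at E13, 38.6, 38.8, 46.4 and 36.1 CPM at E15, 65.4, 66.4, 60.5 and 56.3 CPM at E17 and 49, 55.8, 54.2 and 52.7 CPM at E18. Its highest values were at E17, and the step down to E18, -0.23 ± 0.09, adjusted p = 0.0993, was not called although the 2 stages did not overlap. The change from E13 to E18 was 2.72 ± 0.10, adjusted p = 6.99e-17.

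Cldn8 rose in 2 separate steps. It had 14, 14.3, 12.6 and 12.7 CPM at E13, 23.2, 22, 25.4 and 26.7 CPM at E14, 26.8, 23.6, 20.6 and 32.8 CPM at E15 and 43.6, 49, 46.9 and 41.8 CPM at E16. The E14 and E15 values overlapped, and every E16 gland lay above every E15 gland. The steps to E14 (0.86 ± 0.12, adjusted p = 1.56e-05) and to E16 (0.81 ± 0.12, adjusted p = 1.58e-05) were called, and that to E15 (0.09 ± 0.12, adjusted p = 0.528) was not. From E13 to E18 the change was 2.15 ± 0.12, adjusted p = 2.12e-13.

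Cldn4, the sealing claudin on the same chromosome as Cldn3, rose by a smaller amount. It had 72.7, 66.7, 60.9 and 70.9 CPM at E13 and 137, 132, 111 and 210.5 CPM at E18, a change of 1.12 ± 0.14, adjusted p = 1.99e-07, which turned to -0.98, adjusted p = 6.19e-09 when samples were scaled to the 14 epithelial markers. Without E18 D, whose value was the highest, the change was 0.90, adjusted p = 1.02e-08. The only step called was from E14 to E15, 0.60 ± 0.14, adjusted p = 0.00123, with -0.10, adjusted p = 0.427 under the epithelial scaling.

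Cldn6 had 42.3, 41.3, 38.3 and 35.3 CPM at E13, 43, 42.2, 33 and 38.3 CPM at E15 and 20.4, 19.6, 22.4 and 19.3 CPM at E18. The E13 and E15 values overlapped and every E18 gland lay below every E13 gland, a change of -0.94 ± 0.12, adjusted p = 3.47e-07. The last step, from E17 to E18, was -0.57 ± 0.12, adjusted p = 0.00315, and with those 2 stages fitted alone -0.57, adjusted p = 0.0699. The step from E15 to E16 was -0.37 ± 0.12, adjusted p = 0.0262, and its call was lost in 6 of the 8 fits without 1 gland (adjusted p up to 0.118, without E16 C) and kept without E15 C and without E16 A.

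Cldn12 fell, from 37.1, 40.0, 39.3 and 39.7 CPM at E13 to 27, 25.1, 28.8 and 24.4 CPM at E18 (-0.57 ± 0.10, adjusted p = 2.46e-05). Its 2 stages did not overlap. The step from E14 to E15 (-0.32 ± 0.10, adjusted p = 0.0118) was not called without E15 C (-0.25, adjusted p = 0.053).

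Cldn23 was near the lower limit of what was counted. It had 1.92, 1.16, 1.3 and 1.64 CPM at E13, 2.04, 1.51, 5.99 and 2.64 CPM at E15 and 4.01, 2.96, 2.96 and 1.68 CPM at E18, and these stages overlapped. The value of E15 C stood above the other E15 glands. The change from E13 to E18 was 0.94 ± 0.32, adjusted p = 0.0116, which was 0.75, adjusted p = 0.0523 without E18 A, 0.62, adjusted p = 0.0987 with column totals and -1.08, adjusted p = 0.00665 under the epithelial scaling. The call from E14 to E15 (0.86 ± 0.31, adjusted p = 0.026) was lost without E15 C (0.30, adjusted p = 0.334), without E14 A (adjusted p = 0.0631) and without E14 B (0.0533). Without E15 C the step from E15 to E16 was called (0.72, adjusted p = 0.0374).

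**Figure D1:**
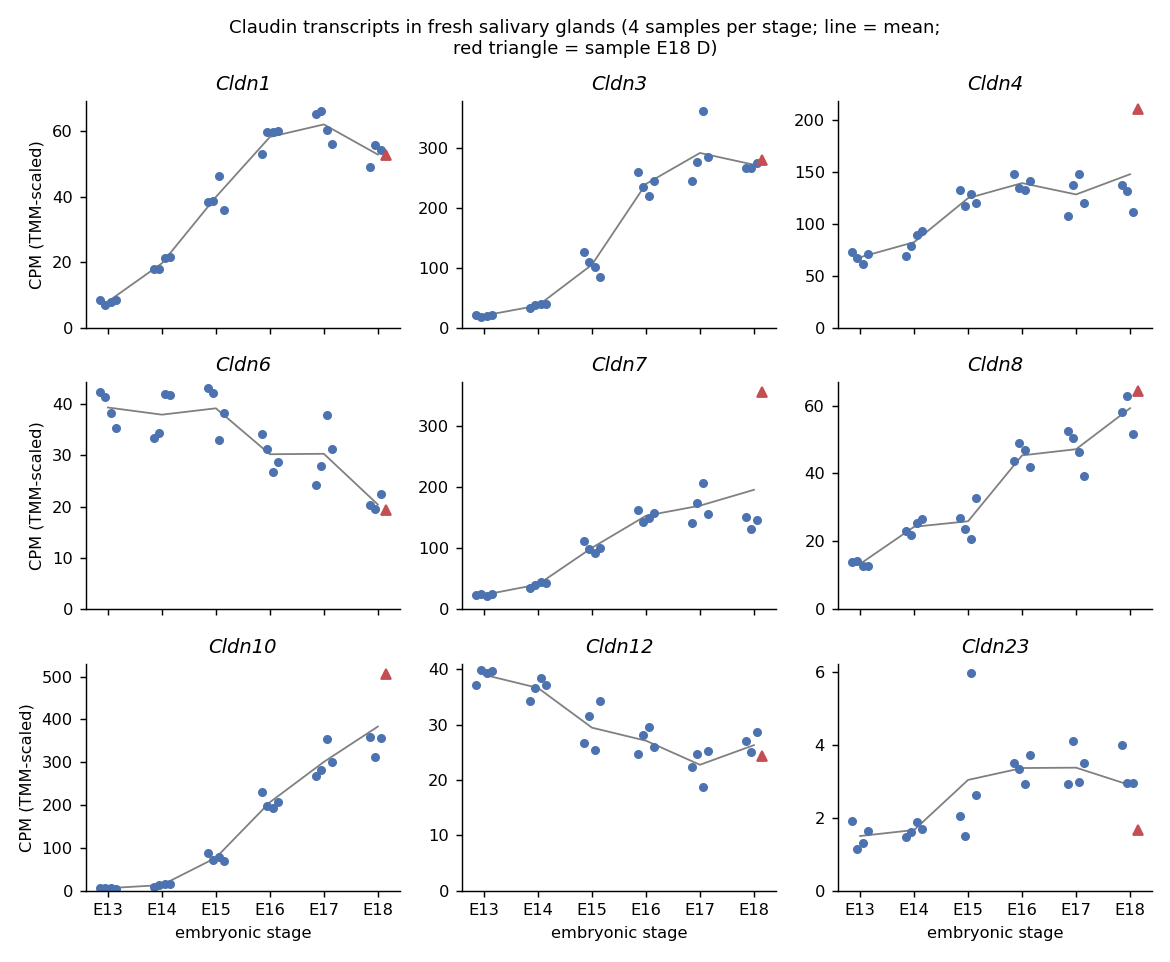
Level in CPM of each of the 9 claudins (1 panel a gene, with its own vertical axis from 0) in the 24 glands from E13 to E18, with points for samples, a line through the means and a red triangle for E18 D. Cldn10, Cldn3 and Cldn7 climb most between E14 and E16, Cldn6 and Cldn12 end below their E13 values, and E18 D lies far above the other E18 glands for Cldn7.

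By single steps, 5 of the 9 rose and 0 fell from E13 to E14, where 11.8% of genes tested rose and 7.63% fell. Under the epithelial scaling, Cldn3 (0.20, adjusted p = 0.0952), Cldn7 (0.12, adjusted p = 0.524) and Cldn8 (0.20, adjusted p = 0.241) lost their call in that step, and Cldn1 and Cldn10 kept it. From E14 to E15, 6 rose and 1 fell (24.7% and 25.0% of all genes), and on that scale Cldn4 and Cldn23 (0.19, adjusted p = 0.647) lost their call. From E15 to E16, 5 rose and 1 fell (12.2% and 11.3%), of which Cldn1 turned to -0.049 (adjusted p = 0.714) under the epithelial scaling, where Cldn7 (0.01, adjusted p = 0.977) and Cldn8 (0.20, adjusted p = 0.217) lost their call too. From E16 to E17, 1 rose and 0 fell (3.39% and 2.11%), and 3 had an unadjusted p under 0.05. That gene was Cldn10 (0.54 ± 0.15, adjusted p = 0.036), and its call was lost in 6 of 8 fits without 1 gland, namely each of E16 B, C and D and E17 B, C and D (adjusted p up to 0.132, without E17 C), as it was under the epithelial scaling (0.40, adjusted p = 0.0735). From E17 to E18, 0 rose and 1 fell (5.91% and 7.09%). Cldn8 missed the threshold in that step (0.33 ± 0.12, adjusted p = 0.0647) and passed it without E18 C (0.39, adjusted p = 0.0388).

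Epithelial markers rose over the same stages, 14 of 14 from E13 to E18 with a median change of 1.95. When each sample was scaled to those markers, the median change of all genes moved to -2.05. On that scale Cldn10 (3.88, adjusted p = 1.87e-17), Cldn3 (1.66, adjusted p = 1.55e-13), Cldn7 (0.91, adjusted p = 1.11e-05) and Cldn1 (0.66, adjusted p = 2.84e-05) still rose. Cldn8 was level with the markers (0.08, adjusted p = 0.632). The scaling moves every gene down by a similar amount, so a gene that fell with TMM has to fall further. Cldn6 had -3.01, adjusted p = 1.03e-16 and Cldn12 had -2.63, adjusted p = 2.12e-14 on that scale. Cldn4 and Cldn23 fell, as given above. Duct markers summed to 301 to 442 CPM at E13 and 2318 to 4773 CPM at E18, and macrophage markers to 61.7 to 80.0 and 314 to 453 CPM. Their part in the claudin changes was not tested.

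The 9 genes can be compared with each other only per length, as CPM per kb of annotated exon. Their sum was 108 ± 5.06 CPM per kb at E13 and 602 ± 114 at E18 (n = 4 each). Cldn4 held the largest share of that sum at E13, 34.4% ± 1.36, ahead of Cldn6 with 21.1% ± 1.46 and Cldn3 with 15.1% ± 1.12. At E18 Cldn3 held 36.7% ± 5.34 and Cldn10 24.5% ± 1.23, while Cldn4 held 13.3% ± 1.59 and Cldn6 2.03% ± 0.4. Cldn10 had held 2.18% ± 0.274 at E13 and 10.4% ± 0.617 at E15. Cldn7 held 11.2% ± 0.638 at E13 and 16% ± 5.12 at E18, where E18 D widened the spread. Cldn12 went from 8.53% ± 0.609 to 1.06% ± 0.218, and Cldn8 was at 5.24% ± 0.253 and 4.25% ± 0.638. The stage means of Cldn1 lay between 1.53% and 2.91%, and those of Cldn23 between 0.275% and 0.748%. At E18 Cldn7 and Cldn4, and Cldn6 and Cldn1 (1.86% ± 0.337), were neighbours in the order that lay closer than the larger SD of each pair.

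**Figure D2:**
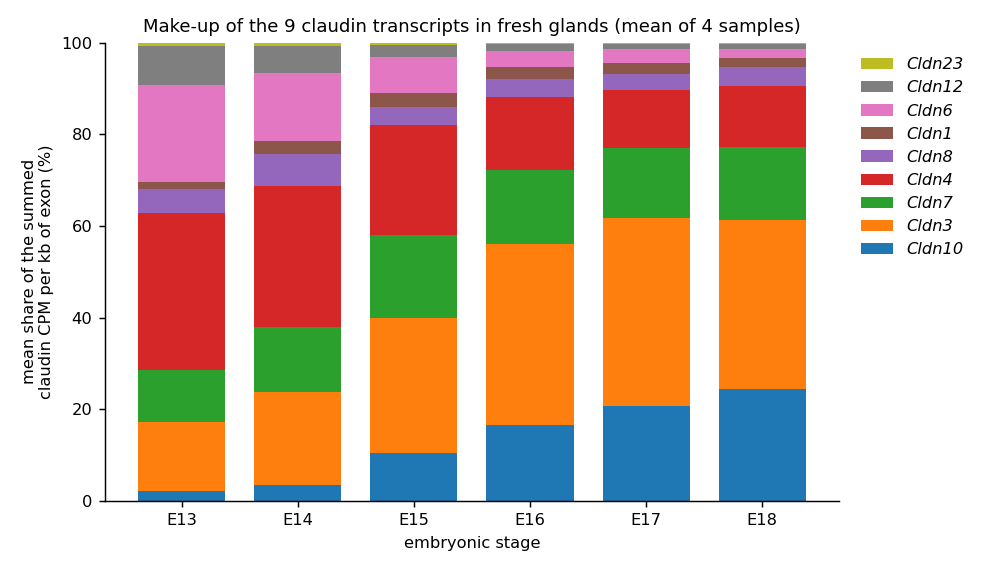
Mean share of each claudin, in percent, in the summed CPM per kb of the 9 genes, stacked for E13 to E18 (n = 4 glands a stage). The share of Cldn4 and Cldn6 shrinks from 34.4% and 21.1%, and the share of Cldn3 and Cldn10 grows to 36.7% and 24.5%.

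Genes with which the claudins work were counted beside them, where 36.5% of all genes tested rose and 36.2% fell from E13 to E18. Of 29 tested tight junction partners 16 rose and 6 fell from E13 to E18, with a median change of 0.38 against 0.01 over all genes. The apical polarity gene Crb3 (3.76 ± 0.23) and the tricellular junction gene Ildr2 (3.76 ± 0.32) rose most, with the strand protein gene Marveld3 (3.01 ± 0.10), and the scaffold genes Mpdz (-2.44 ± 0.15) and Amot (-1.87 ± 0.14) and the adhesion gene Jam3 (-1.35 ± 0.09) fell. Of 22 other junction genes 14 rose and 5 fell (median 0.80), led by the gap junction gene Gjb1 (7.67 ± 0.27) and the desmosome gene Pkp2 (3.54 ± 0.11), with the gap junction gene Gja1 (-1.99 ± 0.14) and the P-cadherin gene Cdh3 (-1.40 ± 0.10) among those that fell. Of 19 regulators of the epithelial state 13 rose and 6 fell (median 0.75), including the activators Elf5 (3.02 ± 0.11) and Ehf (2.40 ± 0.17) upward, and the repressor Snai2 (-1.80 ± 0.14) and the basal factor Trp63 (-1.70 ± 0.13) downward. Of 18 genes whose products cleave, bind or modify claudins or EpCAM 9 rose and 5 fell (median 0.71). The membrane protease genes Tmprss2 (3.58 ± 0.12) and Prss8 (3.34 ± 0.10) were among those that rose, and the 5 that fell are not named here.

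Of the 8 other claudins tested in glands 4 rose and 4 fell (median 0.13). The cation pore claudin Cldn2 rose by 2.38 ± 0.43, from 0.547, 0.941, 0.236 and 0.0513 CPM at E13 to 2.28, 1.92, 2.55 and 2.14 CPM at E18, with higher values of 4.5, 5.54, 4.51 and 5.4 CPM at E16. Cldn9, the neighbour of Cldn6, fell (-2.30 ± 0.37), as did Cldn11 (-2.51 ± 0.30), a claudin of myelin and of Sertoli cells. Cldn15, a pore claudin of the intestine, rose by 2.28 ± 0.48.

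Over the 24 glands the profile of Cldn10 was most like those of Kcnn4, a calcium-gated potassium channel gene (Pearson r = 0.995), and Pwwp2b (0.994), in log2(CPM + 1) among 10291 genes of at least 10 CPM. Cldn3 was most like Atp2a3, a calcium pump of the endoplasmic reticulum (0.996), and Bhlha15, a transcription factor of secretory cells (0.994). Cldn7 was most like Crip2 (0.994) and Epcam (0.992), Cldn1 like Myh14 and Anxa1 (both 0.990), Cldn8 like Slc5a8 (0.983) and Ppargc1a (0.978), and Cldn4 like S100a6 and Rassf7 (both 0.976). Cldn6 was most like Isyna1 (0.949) and Nop9 (0.946), Cldn12 like Tent2 (0.934) and Zbtb5 (0.928), and Cldn23 like Mapkapk3 (0.872) and Gltp (0.848). Among the 9 genes the highest correlation was that of Cldn3 with Cldn10 (0.992). All glands share the trend with age and the change in cell makeup, so these values describe a shared course only.

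The next question was what NRG1 did in separated end buds, labelled 4 h except NRG1 C of E14, which is labelled 72 h. Cldn10 rose 26.0-fold in E13 buds and 6.18-fold in E14 buds, Cldn7 rose by up to 1.92-fold, and Cldn8 fell in both. In E13 buds 4 of the 9 rose and 2 fell, where 23.1% of the 16180 genes tested rose and 19.3% fell. In E14 buds 2 rose and 1 fell (20.2% and 16% of all genes), and these calls were kept without NRG1 C. Duct markers, 12 genes, summed to 1666 to 2769 CPM in E13 controls and 1032 to 1209 CPM with NRG1, with Klk1 at 0 there, and to 1512 to 1912 and 1154 to 1289 CPM at E14. The 8 myoepithelial markers summed to 446 to 608 and 671 to 753 CPM at E13 and 629 to 636 and 784 to 907 CPM at E14, and the acinar markers to 24 to 25.7 and 31.2 to 35.2 CPM at E13 and 42 to 42.4 and 85.4 to 98.1 CPM at E14, with Mucl2 at 0. The 6 Schwann markers, of which Erbb3 is one, summed to 581 to 595 and 445 to 466 CPM at E13 and 562 to 677 and 369 to 399 CPM at E14, and Erbb3 alone had 570 to 584 and 437 to 459 CPM at E13. The sums of these lists moved with NRG1 without overlap at both stages, but at E14 each list had calls in both directions. Of 10 duct markers tested 2 rose and 4 fell at E13, and 1 rose and 3 fell at E14. Of 8 myoepithelial markers 3 rose and 0 fell at E13, and 2 rose and 1 fell at E14. Of 8 acinar markers tested 3 rose and 1 fell at each stage. Of 6 Schwann markers 0 rose and 3 fell at E13, and 1 rose and 2 fell at E14. The part of these lists in the claudin changes was not tested.

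Cldn10 had 1.42, 0.827 and 1.66 CPM in the E13 control buds and 35.2, 34.5 and 36.1 CPM in the E13 NRG1 buds. The groups lay far apart and the NRG1 buds close together. The change was 4.70 ± 0.35, adjusted p = 6.75e-06, or 26-fold. In E14 buds the controls had 15.3 and 5.62 CPM and the NRG1 buds 65, 66.1 and 61.5 CPM, a change of 2.63 ± 0.33, adjusted p = 0.000274. The 2 E14 controls differed from each other, and control B, with the higher Cldn10, also had mesenchyme markers at 5395 CPM against 1694 in control C. Without control B the change was 3.52 and without control C it was 2.07. Each of these fits rests on 1 E14 control, so no adjusted p is given. The part of control B's makeup was not tested.

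Cldn7 had 58.5, 48.2 and 40.0 CPM in E13 controls and 96.2, 93.8 and 91.9 CPM with NRG1 (0.94 ± 0.11, adjusted p = 1.17e-05). At E14 it had 74.2 and 65.4 CPM and 106, 99.7 and 101 CPM (0.55 ± 0.12, adjusted p = 0.00287). In neither stage did the groups overlap. Cldn8 had 85.9, 78.4 and 62.5 CPM in E13 controls and 43.4, 42.8 and 35.4 CPM with NRG1 (-0.90 ± 0.11, adjusted p = 2.5e-05). At E14 it had 54.6 and 56.3 CPM and 24.1, 24.3 and 21 CPM (-1.26 ± 0.13, adjusted p = 8.72e-06). The NRG1 buds of each stage lay below all controls of that stage.

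In E13 buds Cldn12 rose by a small amount (0.34 ± 0.07, adjusted p = 0.00151), from 50.8, 53.1 and 48.8 to 68.3, 60.6 and 65 CPM. Cldn1 rose (0.30 ± 0.10, adjusted p = 0.0213), from 23.8, 25.6 and 22.2 to 30.7, 28.8 and 28.4 CPM, and the call was lost without control A, control C or NRG1 A (adjusted p = 0.0508, 0.0862 and 0.09). Cldn23 fell (-0.64 ± 0.18, adjusted p = 0.0111), from 7.97, 6.38 and 5.58 to 3.58, 5.1 and 4.07 CPM, a call lost without control A (adjusted p = 0.0639) and without NRG1 A (0.0502). Groups did not overlap for these 3 genes. At E14 Cldn23 (-0.43 ± 0.20, adjusted p = 0.113), Cldn12 (0.15 ± 0.08, adjusted p = 0.172) and Cldn1 (0.18 ± 0.11, adjusted p = 0.221) did not pass.

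Of the other members, Cldn3 (-0.37 ± 0.18, adjusted p = 0.141), Cldn4 (-0.30 ± 0.20, adjusted p = 0.266) and Cldn6 (0.09 ± 0.16, adjusted p = 0.705) did not pass in E13 buds, although DESeq2 called Cldn3 lower (-0.39, adjusted p = 0.0309). At E14 they had -0.34 ± 0.20, adjusted p = 0.234 for Cldn3, -0.33 ± 0.22, adjusted p = 0.299 for Cldn4 and -0.28 ± 0.18, adjusted p = 0.277 for Cldn6. With 2 controls these E14 values turn on single samples. Without control C, which leaves 1 control, the change was -0.65 for Cldn4 and 0.28 for Cldn12. Without NRG1 A, Cldn6 fell (-0.50, adjusted p = 0.00812).

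Control buds of the 2 titles were compared without NRG1. All of them carry the stage label E13 plus 4 h. In the controls titled E14, 10 of 12 mesenchyme and 10 of 10 endothelial markers were called higher, and the part of this makeup was not tested. Cldn10 was higher in E14 than in E13 controls by 2.94 ± 0.41, adjusted p = 0.00115, and both E14 controls lay above the 3 E13 controls. Without E14 control B the difference was 2.05. In all 2 of the 9 rose and 1 fell, where 14.4% of genes rose and 9.2% fell. Cldn7 rose (0.51 ± 0.12, adjusted p = 0.00743), and without E14 control B its change was 0.42 and not called. Cldn8 fell (-0.45 ± 0.13, adjusted p = 0.0203), a call lost without E13 control A or B or either E14 control. In the 5 fits without 1 control its change ran from -0.567 to -0.343. Without E14 control C the change of Cldn4 was 0.86. A fit without an E14 control leaves 1, so no adjusted p is given for it.

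Whether NRG1 acted differently at the 2 stages was tested as the difference of the 2 effects. Of the 9 genes 0 were called higher and 0 lower by edgeR, where 0.735% of genes were higher at E14 and 1.53% lower. Unadjusted p was under 0.05 for 2 (Cldn7 and Cldn10), and DESeq2 called 1. For Cldn10 the difference, E14 minus E13, was -2.07 ± 0.49, adjusted p = 0.07. It was -1.18 without control B of E14 and -2.62 without control C. Each of these fits rests on 1 E14 control, so no adjusted p is given. For Cldn7 the difference was -0.39 ± 0.16, adjusted p = 0.234, and -0.55, adjusted p = 0.042 without E13 control A.

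**Figure D3:**
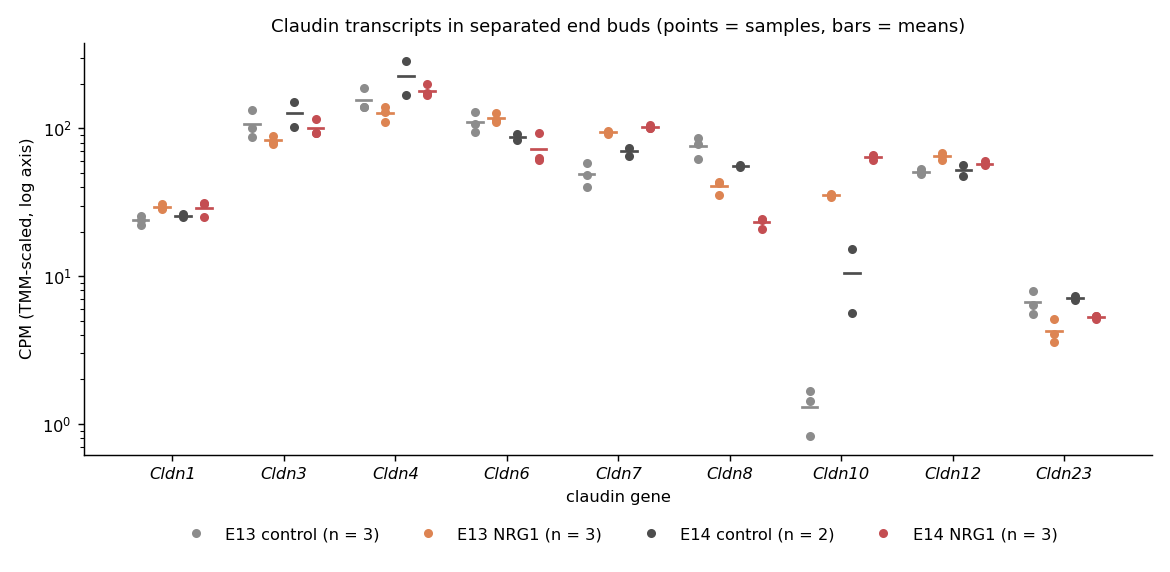
Level in CPM of the 9 claudins (logarithmic vertical axis) in end buds titled E13 and E14, without and with NRG1, with points for samples and bars for means. Cldn10 shows the widest gap, from 0.827 to 1.66 CPM in E13 controls to 34.5 to 36.1 CPM with NRG1, and Cldn8 is lower with NRG1 at both stages.

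Per length, the sum of the 9 claudins was 313 ± 53.1 CPM per kb in E13 controls and 306 ± 19.2 with NRG1 (n = 3 each), so the total differed by less than the spread of the controls. Within it the share of Cldn7 was 8.0% ± 0.331 and 15.8% ± 0.629, that of Cldn8 10.3% ± 0.762 and 5.61% ± 0.374, and that of Cldn10 0.165% ± 0.0674 and 4.46% ± 0.349. The sealing claudins Cldn3 and Cldn4 held 27% ± 1.18 and 27.5% ± 1.5 in controls and 21.5% ± 0.339 and 22.7% ± 1.27 with NRG1. At E14 Cldn10 held 1.06% ± 0.495 and 7.54% ± 0.655.

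With NRG1 23.1% of all genes tested rose and 19.3% fell at E13, and 20.2% rose and 16% fell at E14. Of the 29 tight junction partners 8 rose and 7 fell with NRG1 at E13 (median -0.01, against -0.02 over all genes), and 5 rose and 15 fell at E14 (median -0.22, against 0.02). Cgnl1 (0.67 ± 0.08) and Ybx3 (0.64 ± 0.07) rose at E13, whereas the adhesion gene Jam2 fell (-2.71 ± 0.25), as did cingulin, Cgn (-0.64 ± 0.09). Of 22 other junction genes 6 rose and 0 fell at E13, with Gjb1 at 3.14 ± 0.39 and a median of 0.13, and 1 rose and 8 fell at E14 (median -0.15). Of 19 regulators 1 rose and 8 fell at E13 (median -0.29), where Tfap2c rose (0.85 ± 0.08) and Klf4 (-1.59 ± 0.08), Ovol2 (-1.3 ± 0.12) and Snai2 (-1.18 ± 0.11) fell. At E14, 1 rose and 10 fell (median -0.34). Of 18 cleaving and binding genes 2 rose and 4 fell at E13, with Wnk4 at -1.17 ± 0.15, and 0 rose and 5 fell at E14 (medians -0.06 and -0.12). Of 7 other claudins tested 1 rose and 3 fell at E13 (Cldn9 -1.57 ± 0.15), and 1 rose and 2 fell at E14 (medians -0.02 and -0.17).

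In epithelium cultured with NRG1 the claudins were followed from day 2 to day 4. Of the 7 claudins in the table Cldn10 alone was called higher in both steps. From day 2 to day 3, 4 of 7 rose and 0 fell, where 24% of the 5171 genes in that table rose and 25.3% fell, and from day 3 to day 4, 2 rose and 2 fell (24.6% and 22.0%). Over all genes tested there, 2549 were called from day 2 to 3 and 2410 from day 3 to 4. A fit without 1 sample leaves 1 sample of a day, so adjusted p-values of such fits are not given. Under the epithelial scaling the claudins called from day 2 to 3 went from 4 to 1, Cldn10, with 0.05, adjusted p = 0.69 for Cldn3, 0.02, adjusted p = 0.876 for Cldn7 and 0.21, adjusted p = 0.322 for Cldn1. The sources used here do not say how the genes of that table were picked, and these shares say nothing about all genes.

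Cldn10 had 237 and 294 CPM at day 2, 472 and 497 CPM at day 3 and 708 and 744 CPM at day 4. The 3 days did not overlap. The changes were 0.87 ± 0.10, adjusted p = 0.00247 and 0.58 ± 0.10, adjusted p = 0.00652. In the 4 fits without 1 sample they ran from 0.722 to 1.03 and from 0.536 to 0.622. From day 2 to 3 Cldn3 (0.29 ± 0.05, adjusted p = 0.00866), Cldn7 (0.26 ± 0.07, adjusted p = 0.0245) and Cldn1 (0.45 ± 0.15, adjusted p = 0.0411) rose. Without 1 sample the change ran from 0.407 to 0.501 for Cldn1, from 0.273 to 0.312 for Cldn3 and from 0.219 to 0.303 for Cldn7. None of these genes kept its call in every such fit. The change of Cldn8 ran from -0.037 to 0.429 and that of Cldn4 from -0.038 to 0.357.

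From day 3 to 4 Cldn8 rose (0.56 ± 0.15, adjusted p = 0.0216), while Cldn4 (-0.53 ± 0.14, adjusted p = 0.0213) and Cldn6 (-0.45 ± 0.15, adjusted p = 0.0402) fell. Cldn8 had 147 and 203 CPM at day 3 and 269.6 and 245 CPM at day 4. Cldn4 had 975 and 739 and then 542 and 648 CPM, and Cldn6 had 212 and 204 and then 126 and 179 CPM. The days did not overlap, but with 2 samples a day 1 sample decides most of these calls. Without 1 sample the change ran from 0.332 to 0.805 for Cldn8, from -0.712 to -0.325 for Cldn4 and from -0.732 to -0.231 for Cldn6. None of these genes kept its call in every such fit. The change of Cldn7 ran from 0.073 to 0.228. Acinar markers in these samples summed to 8204 to 9825 CPM at day 2 and 95830 to 97290 CPM at day 4 (10 of 12 in the table). From day 2 to day 3 the sum of epithelial markers (13 in the table) went from 12060 to 12190 to 13950 to 14660 CPM, that of duct markers (8) from 3283 to 3311 to 4768 to 5645 CPM and that of myoepithelial markers (5) from 486 to 500.2 to 677 to 1097 CPM. The part of these lists in the claudin changes was not tested. Of the 3 other claudins in the table Cldn2 rose from day 2 to 3 (1.49 ± 0.26). Of the 18 tight junction partners 7 rose and 3 fell from day 2 to 3 (median 0.15, against 0.04 over the genes of that table), and 1 rose and 6 fell from day 3 to 4 (median -0.11). Of 15 other junction genes 8 rose and 2 fell in the first step and 4 and 5 in the second, and of 9 regulators 0 rose and 6 fell, then 0 and 5. Of 13 cleaving and binding genes 6 rose and 2 fell, then 2 and 3.

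For the knockout the targeted gene comes first. Erbb3 had 89.7, 69.6, 124 and 118 CPM in the WT glands and 35.1, 32, 73.6 and 68.6 CPM in the glands labelled KO, a change of -0.94 ± 0.29, adjusted p = 0.0619, and 1 sample labelled KO lay above the lowest WT sample. Since the 2 groups overlap and the deleted part is not known, the counts do not check the labels, and the groups are named by their labels. Of the 9 claudins 0 rose and 1 fell in the glands labelled KO, where 2.83% of the 14991 genes tested rose and 4.2% fell.

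The gene that passed was Cldn8. It had 37, 25.7, 34.6 and 31.3 CPM in WT and 11.9, 8.8, 22.2 and 20.1 CPM in the glands labelled KO, a change of -1.03 ± 0.26, adjusted p = 0.042. The groups did not overlap, and the call was lost in 6 of the 8 fits without 1 sample, all but those without WT 2 and without KO 3 (adjusted p = 0.0558 to 0.163). Cldn1 had 37.5, 22.5, 30.6 and 28.7 CPM in WT and 12.5, 8.9, 20.7 and 21.4 CPM in glands labelled KO (-0.91 ± 0.26, adjusted p = 0.0526), and it passed without WT 2 (-0.99, adjusted p = 0.0278). Cldn10 had 109, 75, 56.1 and 47.1 CPM and 22.8, 17.1, 46.6 and 42.4 CPM (-1.15 ± 0.35, adjusted p = 0.064). The groups did not overlap for either gene. DESeq2 called both lower (-0.90, adjusted p = 0.014 and -1.14, adjusted p = 0.00719), so 3 of 9 fell by that tool.

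Cldn23 (-0.60 ± 0.27, adjusted p = 0.145), Cldn6 (0.49 ± 0.24, adjusted p = 0.17), Cldn12 (-0.23 ± 0.19, adjusted p = 0.409), Cldn7 (-0.23 ± 0.21, adjusted p = 0.455), Cldn3 (-0.22 ± 0.24, adjusted p = 0.544) and Cldn4 (0.03 ± 0.16, adjusted p = 0.927) did not pass. Per length, Cldn10 held 5.88% ± 2.09 of the claudin sum in WT and 2.93% ± 0.98 in glands labelled KO, and Cldn8 3.02% ± 0.931 and 1.58% ± 0.456. Epithelial markers summed to 3277 to 4815 CPM in WT and 2660 to 3740 CPM in glands labelled KO, and acinar markers to 1162 to 2997 and 298 to 625 CPM, none at 0. Macrophage markers summed to 196 to 228 and 233 to 444 CPM. On the scale of the epithelial markers the values were -0.93, adjusted p = 0.066 for Cldn8, -1.0, adjusted p = 0.0634 for Cldn10 and -0.80, adjusted p = 0.0857 for Cldn1. The part of acinar and macrophage content in these differences was not tested.

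Of 29 tight junction partners 1 rose and 5 fell (median -0.49, against -0.04 over all genes), the 5 including Marveld2 (-1.03 ± 0.22), Magi3 (-1.02 ± 0.25) and Cgnl1 (-1.01 ± 0.17). Of 21 other junction genes 1 rose and 3 fell (median -0.41), with Gjb1 at -1.69 ± 0.45 and Pkp2 at -1.09 ± 0.22. Of 19 regulators 1 rose and 3 fell (median -0.39), among them Ehf (-1.10 ± 0.25). Of 18 cleaving and binding genes 0 rose and 2 fell (median -0.19), with Tmprss2 at -0.94 ± 0.20. Cldn2 was the 1 of 5 other claudins to fall (-1.96 ± 0.43), from 3.44, 1.5, 3.06 and 1.86 CPM to 0.993, 0.387, 0.511 and 0.626 CPM, with no overlap. Over all genes 2.83% rose and 4.2% fell, 1054 calls in all. That number ran from 3 without KO 2 to 3723 without WT 2, and was 66 under the epithelial scaling. These lists were not tested in those fits, so how far their calls depend on single samples is not known.

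The last question was whether inhibition of mTOR by TORIN1 changed the claudins of cultured epithelium. Of the 9 genes 0 rose and 0 fell by edgeR, where 2.46% of the 14985 genes tested rose and 3.36% fell, and 1 had an unadjusted p under 0.05 (Cldn10). DESeq2 and the other scalings also called 0. Cldn10 had 299, 313, 272 and 228 CPM with DMSO and 268, 202, 146 and 180.5 CPM with TORIN1 (-0.48 ± 0.18, adjusted p = 0.148). The groups overlapped through TORIN1 A, and without that sample Cldn10 fell (-0.66, adjusted p = 0.00974). Without it Cldn7 (-0.40, adjusted p = 0.00487) and Cldn3 (-0.38, adjusted p = 0.0108) fell as well, so 3 of 9 were called.

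Cldn7 had 252, 216, 219 and 211 CPM with DMSO and 297, 181, 161 and 170.4 CPM with TORIN1, where TORIN1 A is the first value (-0.15 ± 0.19, adjusted p = 0.69). The other 3 TORIN1 samples lay below all 4 DMSO samples. The differences were -0.15 ± 0.19, adjusted p = 0.699 for Cldn3, 0.19 ± 0.15, adjusted p = 0.498 for Cldn4, 0.13 ± 0.09, adjusted p = 0.462 for Cldn8 and 0.04 ± 0.18, adjusted p = 0.92 for Cldn6, none of which passed. Cldn1 (-0.35 ± 0.30, adjusted p = 0.524), Cldn12 (-0.13 ± 0.09, adjusted p = 0.451) and Cldn23 (-0.13 ± 0.14, adjusted p = 0.636) did not pass either. Per length, Cldn10 held 14.6% ± 1.16 of the claudin sum with DMSO and 10.9% ± 0.79 with TORIN1, and Cldn4 27.6% ± 0.931 and 32.8% ± 0.893. Acinar markers summed to 32650 to 51500 CPM with DMSO and 7914 to 22820 CPM with TORIN1, none at 0, and their part was not tested. Of 28 tight junction partners 0 rose and 0 fell, and of 22 other junction genes Cdh3 rose (0.69 ± 0.16) and Gja1 fell (-0.74 ± 0.14), with medians of -0.11 and -0.06 against 0.02 over all genes. Of 18 regulators 0 rose and 0 fell, and of 17 cleaving and binding genes 2 rose and 0 fell, Ephb1 (1.43 ± 0.25) and Mmp14 (0.37 ± 0.09). Of 5 other claudins 0 rose and 0 fell. Over all genes 2.46% rose and 3.36% fell. In all 873 genes were called, and 3856 without TORIN1 A, and these lists were not tested without that sample.

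**Figure D4:**
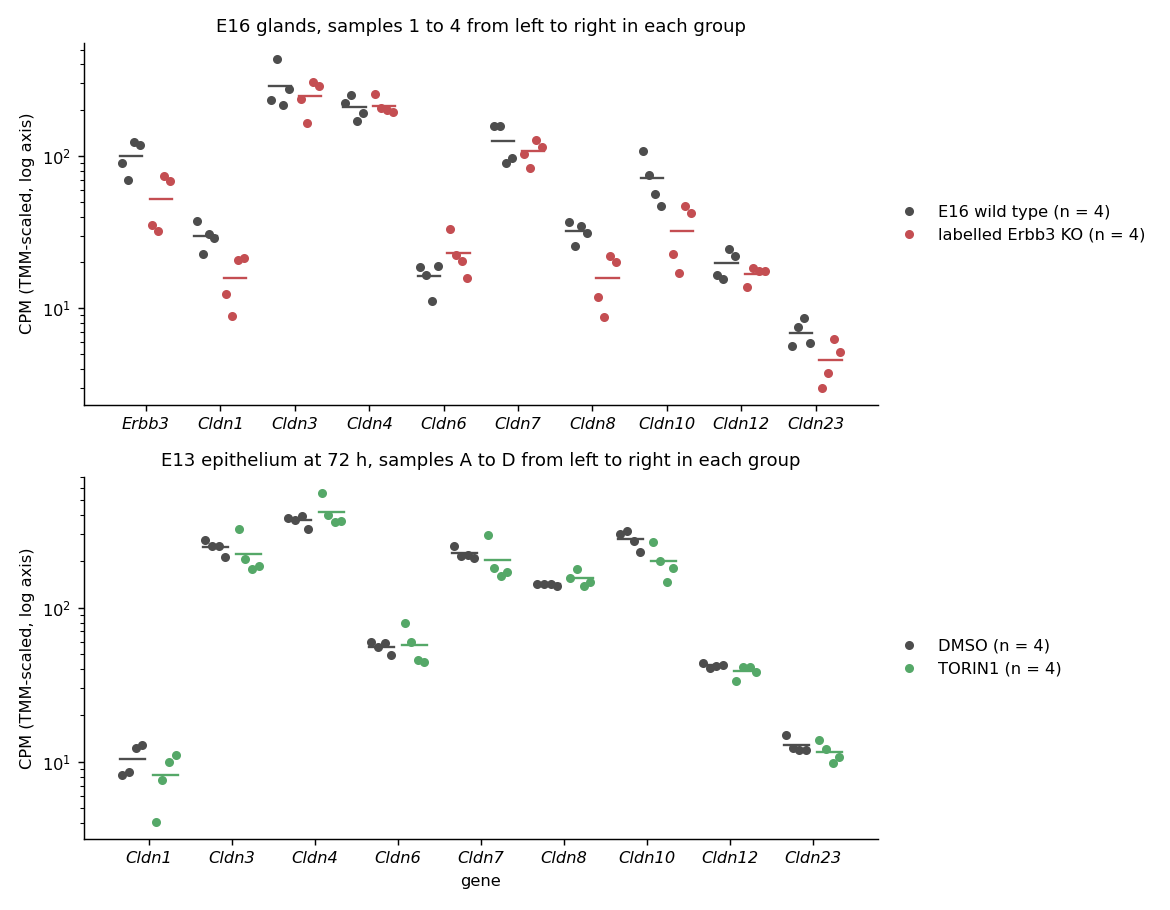
Level in CPM (logarithmic vertical axis) of Erbb3 and the claudins in E16 glands labelled WT and KO, and of the claudins in epithelium with DMSO or TORIN1, with points for samples and bars for means. Cldn8, Cldn1 and Cldn10 do not overlap between WT and the glands labelled KO, while Erbb3 does, and TORIN1 A lies above the other TORIN1 samples for Cldn7 at 297 CPM.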

How the data were processed

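RNA sequencing of 57 samples was used. Raw counts per gene were deposited by the authors in 5 tables. The input was total RNA with NEBNext Ultra libraries, per the labels' protocols, and fastp, STAR, featureCounts and the build mm10 are named per the submitters' processing notes. The sources used here give no versions, annotation release or strand setting. Ensembl identifiers were given symbols from GENCODE M21, matching 97.8% of genes in the gland and end bud tables and 99.8% in the TORIN1 table. In the table of cultures, 8 rows whose symbol had become a date, with 0.123% of the counts, were left out. No column was left unused.

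The test was that of edgeR 4.0.16 under R 4.3.3 (TMM, default filter, robust quasi-likelihood F test, all groups of a table in 1 fit, Benjamini-Hochberg adjusted p under 0.05 over all genes tested). SE is the size of the log2 fold change divided by the square root of F. The scripts were tested on simulated data. The alternatives were DESeq2 1.42.0, RLE factors, column totals, no filter, the compared groups alone, a replicate block, samples left out, and scaling to the epithelial markers. The authors' count totals limit the precision of genes at a few CPM, such as Cldn23.

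The members, lists, markers and tests were chosen with earlier results of these data known, so none of them is independent support. Named were all 9 claudins, and from each list up to 3 called genes in each direction with the largest changes, of which the text prints some. For likeness, the 2 most correlated genes of each claudin were named. In the end bud headers S was taken to mean NRG1 and C to mean control. No 2 replicates agreed within sampling noise.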

Additional observations from a re-analysis of the deposited data

Results flagged for a closer look

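A sample was marked where its distance to the nearest other sample of its group of 4 took a larger part of the group's range than Dixon's 95% critical value allows. Of 90 groups of claudin values tested 4 were marked, and chance marks about 1 in 20. Cldn7 was 355 CPM in gland E18 D and 131 to 151 CPM in the other E18 glands. Cldn7 was 297 CPM in TORIN1 A and 161 to 181 CPM in the other TORIN1 samples. Cldn1 was 53.2 CPM in gland E16 A and 59.9 to 60.3 CPM in the other E16 glands. Cldn23 was 14.9 CPM in DMSO A and 11.9 to 12.3 CPM in the other DMSO samples. E18 D and TORIN1 A also stood apart over all genes. Results without E18 D are given for Cldn10, Cldn7 and Cldn4, and without TORIN1 A for Cldn10, Cldn7 and Cldn3. Every claudin kept its E13 to E18 call without E18 D. From E17 to E18, 2147 genes were called, and 3109 without E18 D. The gene lists and the correlations were not run without these samples.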

How the results depend on the processing

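Of 50 called claudin values, 49 kept direction and call with DESeq2, 49 with RLE factors, 48 with column totals, 48 without the filter, 46 of 50 under the replicate block, 42 of 49 with the compared groups alone and 33 under the epithelial scaling, and 280 of 338 did in fits without 1 sample. Some fits without 1 sample leave 1 sample in a group of end buds or cultures, so their calls hold no spread of that group. Under the epithelial scaling 4 reversed, namely Cldn4 from E14 to E15 (-0.10, adjusted p = 0.427), Cldn1 from E15 to E16 (-0.049, 0.714), Cldn4 from E13 to E18 (-0.98) and Cldn23 from E13 to E18 (-1.08). With column totals the median change of all genes was -0.332 from E13 to E18 (0.0115 with TMM), -0.182 from E17 to E18 (0.0234) and -0.153 for KO (-0.0379). Under the epithelial scaling it was -0.653, -0.648, -0.616 and -0.137 for the steps to E14, E15, E16 and E17, -2.05 from E13 to E18, 0.171 for NRG1 in E14 buds, -0.142 for control buds, 0.196 for the difference of effects, 0.13 for TORIN1, 0.112 for KO and -0.196 from day 2 to 3. The cause of these moves was not tested.

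The part of the called genes that was higher also moved. With column totals it went from 50.2% to 35.4% from E13 to E18, from 51.9% to 38.8%, from 61.7% to 35.8% and from 45.5% to 11.8% for the steps to E16, E17 and E18, from 42.3% to 58.2% for TORIN1, from 40.2% to 20.5% for KO and from 52.8% to 31.6% from day 3 to 4 (42.5% with DESeq2). Under the epithelial scaling it went from 60.8% to 2.95%, 49.8% to 5.73%, 51.9% to 4.3%, 61.7% to 28.8% and 45.5% to 57.4% for the steps to E14, E15, E16, E17 and E18, and from 50.2% to 6.63% from E13 to E18. It went from 55.8% to 77% for NRG1 in E14 buds, from 61% to 44% for control buds, from 32.4% to 74.1% for the difference of effects, from 42.3% to 70.1% for TORIN1, and from 48.6% to 20.3% and from 52.8% to 65.9% for the culture steps.

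The number of claudins called changed by more than 1.5 times as follows. From E16 to E17 it went from 1 to 0 under the epithelial scaling and the replicate block. From E17 to E18 it went from 1 to 2 with DESeq2 and RLE factors, 3 with column totals and 0 with the compared groups alone. It went from 3 to 5 for NRG1 in E14 buds under the block, from 3 to 1 for control buds with the compared groups alone, and from 0 to 1 for the difference of NRG1 effects with DESeq2 and under the block. For KO it went from 1 to 3 with DESeq2 and column totals, 2 without the filter and under the block, and 0 under the epithelial scaling. In culture it went from 4 to 1 from day 2 to 3 under the epithelial scaling, and from day 3 to 4 to 2 under the block and 1 with the compared groups alone. Without 1 sample the numbers ran 5 to 5 (E14), 5 to 7 (E15), 4 to 6 (E16), 0 to 1 (E17), 1 to 2 (E18) and 8 to 9 (E13 to E18). They ran 4 to 6 (NRG1 in E13 buds), 0 to 3 (TORIN1) and 0 to 2 (KO). Where such a fit can leave 1 sample in a group, as with E14 controls and cultures, no numbers are given.

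Samples were not treated as paired by replicate number in the main fits, since no comparison had every pair over 0.1 in correlation. This rule cannot show that samples were unpaired, and the highest pair of TORIN1 and DMSO reached 0.501. From day 3 to 4 the correlation was -0.469, and a crossed pairing chosen after seeing the data called 4. With 2 samples a day, crossing the numbers turns the sign of that correlation by construction. The compared groups alone are all groups of the table for TORIN1, KO and the difference of effects, so no other fit exists there. Over all genes the count of calls moved by more than 1.5 times from 3214 to 11405 (epithelial scaling) and 5221 (compared groups alone) from E13 to E14, to 11402 (epithelial scaling) from E15 to E16, from 908 to 1804 (compared groups alone) from E16 to E17, and from 2147 to 3818 (column totals), 1428 (epithelial scaling) and 647 (compared groups alone) from E17 to E18. It moved to 2065 for control buds and 1517 for day 3 to 4 with the compared groups alone, from 367 to 815 (DESeq2) and 185 (epithelial scaling) for the difference of effects, from 873 to 1963 (DESeq2) for TORIN1, and from 1054 to 2661 (DESeq2), 1659 (column totals), 2121 (no filter) and 66 (epithelial scaling) for KO. Without 1 sample the count ran from 523 to 743 from E16 to E17. It ran from 144 to 3856 for TORIN1 (3856 without TORIN1 A) and from 3 to 3723 for KO (3723 without WT 2).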
